A study of Homo sapiens with 6 samples.

Results

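Sugar metabolism was followed through 35 genes of glycolysis and glycogen turnover, among 24407 genes counted, in human dermal fibroblasts with and without MyoD, the transcription factor that starts the muscle program. The genes were picked by name (glucose transporters, the enzymes from hexokinase to lactate dehydrogenase, and the enzymes and regulators of glycogen), and all 35 were found, as 79 RefSeq transcripts whose counts were added up per gene. They hold 10 forms best known from muscle, 10 counterparts from the same families that serve liver, brain or cells in general, and 15 general forms. Polyadenylated RNA was sequenced from 3 groups of 2 libraries each, described as biological duplicates, all from cultures of 1 primary line, so every p-value below measures the spread between cultures of that line. Untreated fibroblasts were the control. WT-MyoD cells carried a Tet-ON lentivirus, which responds to doxycycline, with mouse wild-type MyoD. VP64-MyoD cells carried the same vector with VP64, an activation domain of viral origin, joined by a serine and glycine linker to the N-terminus of mouse MyoD. In either vector a self-cleaving peptide linked the factor to the red fluorescent protein dsRed-Express2. Both kinds of transduced cells were enriched with puromycin, grown until confluent, kept in 3 µg/mL doxycycline and collected at day 10. For the untreated cells no label gives a virus, a selection, doxycycline or a day of harvest, so the action of MyoD cannot be told apart from these in the comparisons with untreated cells.

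Glycolysis splits glucose into pyruvate and yields ATP without oxygen, and glycogen is the glucose store that skeletal muscle breaks down when it contracts. Several steps are run by families of isoenzymes that catalyse the same reaction from different genes, and skeletal muscle uses its own members, such as the M form of phosphofructokinase, phosphoglycerate mutase 2, beta enolase and muscle glycogen phosphorylase, where most other cells use a general form. Phosphorylase kinase, which turns phosphorylase on, and the phosphatase subunits that bind glycogen likewise come in muscle and other versions.

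Promoters of 32 of the 35 genes were matched in RefSeq (build GRCh38.p14, from 250 bases before to 50 bases after the start, on the strand of the gene); SLC2A3, SLC2A4 and PYGM had no entry. MyoD binds E-boxes, and CANNTG, a pattern that reads alike on both strands, was searched; CAGCTG is one of its versions and is counted within it. The first pair below is a muscle and a general phosphoglycerate mutase, the second pair a muscle and a general enolase, and the last 2 are the gene without a read outside VP64-MyoD cells and glycogen synthase, which changed about as much with either factor. CANNTG is in capitals. PGAM2 lies at chr7:44065518-44065817 on the minus strand, PGAM1 at chr10:97427568-97427867 on the plus strand, ENO3 at chr17:4950302-4950601 on the plus strand, ENO1 at chr1:8878637-8878936 on the minus strand, PPP1R3A at chr7:113918960-113919259 on the minus strand and GYS1 at chr19:48993260-48993559 on the minus strand.
PGAM2: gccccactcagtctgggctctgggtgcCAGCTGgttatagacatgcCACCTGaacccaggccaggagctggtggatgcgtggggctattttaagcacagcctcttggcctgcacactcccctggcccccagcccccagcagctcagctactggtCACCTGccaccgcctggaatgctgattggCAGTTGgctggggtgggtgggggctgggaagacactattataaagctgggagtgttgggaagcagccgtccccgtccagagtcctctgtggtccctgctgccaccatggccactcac
PGAM1: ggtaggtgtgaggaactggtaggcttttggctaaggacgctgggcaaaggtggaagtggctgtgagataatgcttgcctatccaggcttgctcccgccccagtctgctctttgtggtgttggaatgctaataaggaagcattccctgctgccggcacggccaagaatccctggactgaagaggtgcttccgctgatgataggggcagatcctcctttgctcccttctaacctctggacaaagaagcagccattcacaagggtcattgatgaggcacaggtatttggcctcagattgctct
ENO3: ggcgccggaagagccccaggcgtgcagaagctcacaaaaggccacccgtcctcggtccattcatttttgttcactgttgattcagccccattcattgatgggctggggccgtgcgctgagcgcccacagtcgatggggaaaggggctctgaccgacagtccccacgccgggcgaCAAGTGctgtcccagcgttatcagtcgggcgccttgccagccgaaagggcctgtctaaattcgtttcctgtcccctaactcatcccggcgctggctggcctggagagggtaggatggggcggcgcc
ENO1: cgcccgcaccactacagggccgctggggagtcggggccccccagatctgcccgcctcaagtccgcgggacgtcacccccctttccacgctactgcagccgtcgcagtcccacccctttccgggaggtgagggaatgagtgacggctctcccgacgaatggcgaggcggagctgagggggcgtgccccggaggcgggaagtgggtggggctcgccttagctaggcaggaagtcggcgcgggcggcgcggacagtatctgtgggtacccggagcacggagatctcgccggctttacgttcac
PPP1R3A: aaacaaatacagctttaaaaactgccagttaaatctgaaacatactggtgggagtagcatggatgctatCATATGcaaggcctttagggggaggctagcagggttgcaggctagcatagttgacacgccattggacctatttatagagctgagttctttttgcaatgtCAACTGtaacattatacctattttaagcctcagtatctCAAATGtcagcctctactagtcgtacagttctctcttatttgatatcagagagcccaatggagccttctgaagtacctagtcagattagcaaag
GYS1: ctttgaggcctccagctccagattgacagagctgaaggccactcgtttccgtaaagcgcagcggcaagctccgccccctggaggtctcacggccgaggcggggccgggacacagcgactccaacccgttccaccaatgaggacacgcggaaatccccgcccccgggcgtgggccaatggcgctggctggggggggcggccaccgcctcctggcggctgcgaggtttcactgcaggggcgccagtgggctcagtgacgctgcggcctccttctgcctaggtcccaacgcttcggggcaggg
PGAM2 held 4 matches, of which the one that starts at -223 from the gene start was CAGCTG. ENO3 held 1, at -76, and PPP1R3A held 3. PGAM1, ENO1 and GYS1 held 0 in this window. Of 16357 promoters of genes in the count table, 10618 (64.9%) held CANNTG and 2894 (17.7%) held CAGCTG. Of the 32 promoters here, 20 (62.5%) held CANNTG and 8 held CAGCTG. The wider pattern was in 6 of 8 muscle forms, 3 of 9 counterparts and 11 of 15 general forms. The shares over the 32 genes lay near those of all promoters for CANNTG, and no test was made on these counts.

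The libraries held between 40997586 and 53804224 counts, where each read pair counts as 2, and the duplicates of a group were further apart than counting noise (chi-square over its degrees of freedom 3.43 for untreated, 13.5 for WT-MyoD and 5.88 for VP64-MyoD). The row for the mouse transgene held 254 and 46 counts in the untreated libraries, 42900 and 41736 in those of WT-MyoD and 5372 and 5056 in those of VP64-MyoD. All 12 fibroblast markers had reads in every group, but so did the 12 skeletal muscle markers below. Presence of reads is therefore no check on the label as fibroblasts. The fibroblast markers summed to between 42499 and 44798 CPM in untreated cells. A list of 12 skeletal muscle markers summed to between 18.3 and 18.7 CPM (counts scaled by TMM to a common library total) in untreated cells, between 978 and 1020.4 CPM with WT-MyoD and between 6097 and 7020.5 CPM with VP64-MyoD, and 12 of 12 were higher in each of the 3 comparisons. In these bulk libraries a change in the share of muscle-like cells and a change in RNA per cell cannot be told apart.

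In the untreated libraries the 35 genes together took 0.618% and 0.596% of all counts; their share was 0.908% and 0.828% under WT-MyoD and 1.08% and 1.06% under VP64-MyoD. On the TMM scale their summed level was 6669.5 and 6523 CPM in untreated cells, 8474 and 8253 CPM with WT-MyoD, and 10422 and 10002 CPM with VP64-MyoD. The 2 libraries of each group lay together, and the 3 groups did not overlap. Of the difference of 1768 CPM between WT-MyoD and untreated cells, PKM, the pyruvate kinase gene, held 59.4%, GAPDH 19.6% and GYS1, glycogen synthase, 13.5%. Of the 3616 CPM between VP64-MyoD and untreated cells, PKM held 37.8% and GAPDH 15.3%, with the rest spread over more of the pathway, including LDHA with 8.40%, ALDOA with 6.85% and ENO1 with 6.82%. PKM was summed over 7 transcripts and GAPDH over 2. These parts would shift if 1 read was counted for several transcripts, which was not tested.

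With WT-MyoD, 15 of the 34 genes that passed the filter on low counts were higher than in untreated cells and 4 were lower (edgeR, adjusted p under 0.05; over all 15778 genes tested, 25.7% were called higher and 22.2% lower). FBP2 was the gene that did not pass the filter, and SLC2A4, PYGM and PPP1R3A passed it only through the VP64-MyoD libraries, where they were highest, so their calls with VP64-MyoD are tied to that filter. Without these 3 genes the counts were 14 higher and 4 lower of 31 with WT-MyoD, 24 higher and 7 lower with VP64-MyoD, and 20 and 4 between the factors. With WT-MyoD the median log2 fold change of all 34 genes was 0.17, against 0.0 over all genes tested. Higher by more than 2-fold were 6 of the 34, PGAM2, ENO3, PYGM, PHKA1, PHKG1 and GYS1, and 0 were lower by more than 2-fold (background 11.6% and 3.99%). Of the 31 genes left without SLC2A4, PYGM and PPP1R3A, 5 were higher by more than 2-fold.

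With VP64-MyoD, 26 of the 34 genes were higher than in untreated cells, 7 were lower and 1, SLC2A4, was not called (background 33.0% higher and 30.0% lower). The median log2 fold change was 0.60, against 0.03 over all genes. More than 2-fold higher were 10 genes, the 6 above with PPP1R3A, PKM, PFKP and ALDOC, and PPP1R3C was more than 2-fold lower (background 12.8% and 6.94%). With SLC2A4, PYGM and PPP1R3A left out, 8 of 31 were more than 2-fold higher. These comparisons share the untreated libraries. The count of lower genes was 4 without VP64-MyoD replicate 2 and 4 without untreated replicate 1, since PFKL, PYGL and PGM1 were not called there.

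Set directly against WT-MyoD, VP64-MyoD cells had 23 of the 34 genes higher, 4 lower and 7 not called (background 28.4% higher and 28.2% lower), with a median log2 fold change of 0.36 against 0.02 over all genes. The 5 that were more than 2-fold higher were ENO3, PYGM, PPP1R3A, ALDOC and SLC2A4, and 0 were more than 2-fold lower (background 7.6% and 6.77%). PYGM, PPP1R3A and SLC2A4 passed the filter only through the VP64-MyoD libraries. With them left out, 2 of 31 were more than 2-fold higher, ENO3 and ALDOC, which lies near the background. The 4 lower genes were PYGB, PHKB, GBE1 and PPP1R3C, all of glycogen turnover.

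**Figure D1:**
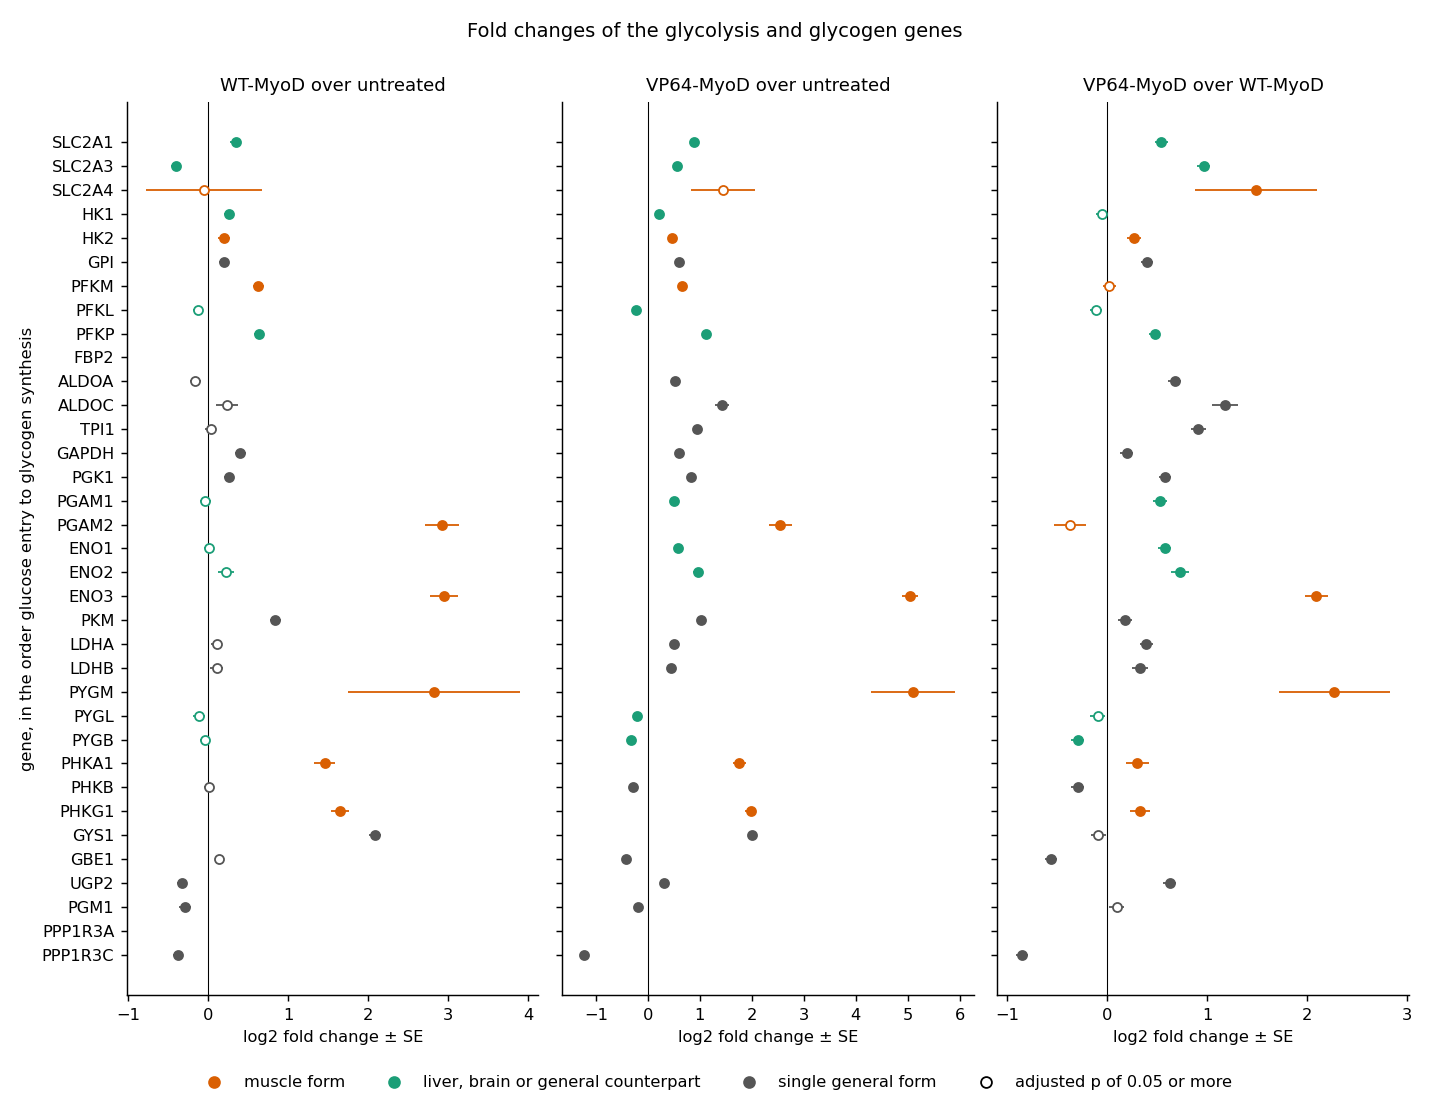
Log2 fold change of each gene on the horizontal axis, with its standard error as a bar, for WT-MyoD over untreated, VP64-MyoD over untreated and VP64-MyoD over WT-MyoD; genes run from glucose entry at the top to glycogen synthesis at the bottom, colours give the class and open points an adjusted p of 0.05 or more. PGAM2, ENO3, PYGM, PHKA1, PHKG1 and GYS1 stand to the right in the first 2 panels; FBP2 (under the filter) and PPP1R3A (no read in untreated or WT-MyoD cells) have no point, and the horizontal axes differ between panels.

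Grouped by class, more of the muscle forms than of their counterparts were higher with WT-MyoD. Of 9 muscle forms tested, 7 were higher and 0 lower, with a median log2 fold change of 1.46; of the 10 counterparts 3 were higher and 1 lower, with a median of -0.01. With VP64-MyoD the muscle forms numbered 8 higher and 0 lower (median 1.98, the same with PPP1R3A at its lower bound), and the counterparts 7 higher and 3 lower (median 0.53). The 15 general forms had 5 higher and 3 lower with WT-MyoD (median 0.11), and 11 higher and 4 lower with VP64-MyoD (median 0.52). This class also holds ALDOC of brain and genes that muscle shares with other tissues, among them LDHA, ALDOA, PKM and GYS1. With WT-MyoD, PKM and GYS1 were higher (log2 fold changes 0.84 and 2.08), and LDHA and ALDOA were not called (0.11 and -0.16). Between the 2 factors the classes lay closer, with 7 higher and 0 lower among muscle forms (median 0.33), 6 and 1 among counterparts (median 0.50), and 10 and 3 among general forms (median 0.33). Over all genes 25.7% were higher and 22.2% lower with WT-MyoD, so the 3 of 10 counterparts and 5 of 15 general forms higher with WT-MyoD lie near the background. The background was 33.0% and 30.0% with VP64-MyoD, and 28.4% and 28.2% between the factors. The 3 of 10 counterparts and 4 of 15 general forms lower with VP64-MyoD lie near it too. Without SLC2A4, PYGM and PPP1R3A, 6 of 6 muscle forms were higher in each comparison with untreated cells (medians 1.55 and 1.87), and 4 of 6 between the factors (median 0.29). These medians are descriptions of the classes and were given no test.

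Glucose enters through transporters of the SLC2A family and is held in the cell by hexokinase. Against untreated cells, WT-MyoD had 3 of these 5 genes higher and 1 lower (background 25.7% and 22.2%). With VP64-MyoD 4 were higher and 0 lower (background 33.0% and 30.0%). SLC2A1, the general transporter GLUT1, stood at 92.7 and 86.6 CPM in untreated cells, 113.9 and 114.1 CPM with WT-MyoD, and 173 and 159.5 CPM with VP64-MyoD. It rose in both comparisons with untreated cells (log2 fold changes 0.35, SE 0.07, and 0.89, SE 0.07; edgeR adjusted p = 0.0004 and 1e-08) and from WT-MyoD to VP64-MyoD (0.54, adjusted p = 3.7e-06). The groups did not overlap and followed the order untreated, WT-MyoD, VP64-MyoD. SLC2A3, the high-affinity transporter GLUT3, went opposite ways with the 2 factors: 78.9 and 80.8 CPM in untreated cells, 59.4 and 61.6 CPM with WT-MyoD, and 114 and 122 CPM with VP64-MyoD. It was lower with WT-MyoD (log2 fold change -0.40, SE 0.06, adjusted p = 8e-05) and higher with VP64-MyoD (0.56, SE 0.06, adjusted p = 1.3e-06), and VP64-MyoD lay above WT-MyoD (0.97, SE 0.06, adjusted p = 4.4e-09). SLC2A14 is a near-identical copy of SLC2A3, and reads may have been counted for either.

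SLC2A4, the insulin-responsive transporter GLUT4 of muscle and fat, was near the limit of detection in all 6 libraries, with 5 and 2 read pairs in the untreated group, 4 and 3 read pairs with WT-MyoD, and 13 and 7 read pairs with VP64-MyoD. The VP64-MyoD libraries were the highest, and the ratio of VP64-MyoD to untreated was 2.71 (95% counting interval from 1.101 to 7.59, exact), with an edgeR adjusted p of 0.051. Over WT-MyoD the adjusted p was 0.049 (log2 fold change 1.49, SE 0.61); it was 0.44 without VP64-MyoD replicate 1, and the call held in 4 of 13 alternatives, with adjusted p between 0.045 and 0.44. Intervals here cover counting error only.

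HK1, the hexokinase of most tissues, stood at 221 and 208 CPM in untreated cells, 258.5 and 257.8 CPM with WT-MyoD, and 248 and 250.5 CPM with VP64-MyoD. It was higher with WT-MyoD (log2 fold change 0.27, SE 0.06, adjusted p = 0.002) and with VP64-MyoD (0.22, SE 0.06, adjusted p = 0.0063), with no call between the factors (-0.05, SE 0.06, adjusted p = 0.5). HK2, the insulin-regulated hexokinase of muscle, had 44.6 and 41.3 CPM in untreated cells, 46.5 and 52.1 CPM with WT-MyoD, and 59.9 and 58.9 CPM with VP64-MyoD. HK2 rose with VP64-MyoD over untreated cells (log2 fold change 0.47, SE 0.07, adjusted p = 4.9e-05) and over WT-MyoD (0.27, SE 0.07, adjusted p = 0.0053). Its rise with WT-MyoD (0.20, SE 0.07, adjusted p = 0.039) was lost in 7 of 15 alternatives, with adjusted p up to 0.29 without untreated replicate 2. The HK1 calls over untreated cells were lost without untreated replicate 2 (adjusted p = 0.055 with WT-MyoD and 0.11 with VP64-MyoD), and the VP64-MyoD call also without VP64-MyoD replicate 2 (adjusted p = 0.07).

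The upper steps turn glucose 6-phosphate into 3-carbon sugars, and phosphofructokinase (PFK) sets their pace. Of these 7 genes, FBP2 left aside, 3 were higher and 0 lower with WT-MyoD (background 25.7% and 22.2%), and 6 were higher and 1 lower with VP64-MyoD (background 33.0% and 30.0%). PFKP, a counterpart of the muscle form, stood at 57.6 and 56.6 CPM in untreated cells, 88.6 and 88.5 CPM with WT-MyoD, and 123 and 123.5 CPM with VP64-MyoD. It rose with WT-MyoD (log2 fold change 0.63, SE 0.06, adjusted p = 2.9e-07), with VP64-MyoD (1.11, SE 0.06, adjusted p = 2.6e-10) and between them (0.48, SE 0.06, adjusted p = 5.9e-06). PFKM, the muscle form, stood at 41.9 and 42.2 CPM in untreated cells, 68.3 and 61.6 CPM with WT-MyoD, and 66.9 and 65.2 CPM with VP64-MyoD. It rose to about the same level with either factor (log2 fold changes 0.63 and 0.65, SE 0.07 each, adjusted p = 1.4e-06 and 6.9e-07), and the libraries of the 2 factors overlapped (log2 difference 0.02, SE 0.07, adjusted p = 0.79). PFKL, the liver form, stood at 78.7 and 76.2 CPM in untreated cells, 68.8 and 73.4 CPM with WT-MyoD, and 66.5 and 65.3 CPM with VP64-MyoD. This liver form was lower with VP64-MyoD (log2 fold change -0.23, SE 0.06, adjusted p = 0.0046) but not without untreated replicate 1 (adjusted p = 0.052) or without VP64-MyoD replicate 2 (adjusted p = 0.05), and it was not called with WT-MyoD (-0.12, adjusted p = 0.12; called without WT-MyoD replicate 2, adjusted p = 0.039).

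Per kilobase, summed over the transcripts of a gene, PFKL was the highest of the 3 PFK genes in untreated cells, at 27.0 and 26.2 CPM per kb against 21.3 and 20.9 for PFKP and 13.5 and 13.6 for PFKM. PFKL was counted as 1 transcript, PFKP as 2 and PFKM as 4. Counts were close to even between the transcripts of a gene, so 1 read may have been counted for several. Levels and shares that compare genes would then depend on the number of transcripts, which was not tested. In VP64-MyoD cells PFKP led with 45.4 and 45.6 CPM per kb, while PFKL and PFKM lay at 22.8 and 22.4 and at 21.7 and 21.1. The share of PFKP among the 3 went from 34.5% ± 0.0113 to 41.9% ± 0.190 with WT-MyoD and 50.8% ± 0.515 with VP64-MyoD (SD, n = 2 each), and that of PFKM from 22.2% ± 0.407 to 26.9% ± 1.81 and 23.9% ± 0.337.

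GPI, the isomerase that makes fructose 6-phosphate, ALDOA, the aldolase of muscle and most other cells, and TPI1, triose phosphate isomerase, are general forms. With VP64-MyoD all 3 were higher than in untreated cells, with log2 fold changes of 0.60, 0.52 and 0.95. TPI1 had 169 and 167 CPM in untreated cells, 186 and 158 CPM with WT-MyoD, and 331 and 318 CPM with VP64-MyoD. TPI1 of the WT-MyoD libraries lay on either side of untreated (adjusted p = 0.75, or 0.018 without WT-MyoD replicate 2), and both VP64-MyoD libraries lay far above (adjusted p = 2.1e-08 over untreated and 4.6e-08 over WT-MyoD). ALDOA had 575 and 568 CPM in untreated cells, 533.5 and 492 CPM with WT-MyoD, and 852 and 787 CPM with VP64-MyoD. With WT-MyoD the log2 fold change of ALDOA was -0.16 (SE 0.07, adjusted p = 0.075; called without WT-MyoD replicate 1, adjusted p = 0.0027). GPI rose slightly with WT-MyoD (0.20, SE 0.06, adjusted p = 0.013), a call lost without untreated replicate 1 (adjusted p = 0.053) and without untreated replicate 2 (adjusted p = 0.14).

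ALDOC, the aldolase of brain, had 4.57 and 3.68 CPM in untreated cells, 5.05 and 4.67 CPM with WT-MyoD, and 11.4 and 10.8 CPM with VP64-MyoD. It rose 2.67-fold with VP64-MyoD (log2 fold change 1.42, SE 0.13, adjusted p = 1.6e-07) and 2.27-fold over WT-MyoD (1.18, SE 0.13, adjusted p = 1.4e-06). Per length it stayed a small part of the aldolase RNA, at 0.575% ± 0.0828, 0.754% ± 0.000816 and 1.07% ± 0.0164 of ALDOA and ALDOC together (SD, n = 2). ALDOA was counted as 5 transcripts and ALDOC as 1, so the level of this share would be too low if reads were counted for several transcripts. FBP2, the muscle fructose bisphosphatase that runs the step backwards, had 2 and 2 read pairs in the untreated group, 5 and 2 read pairs with WT-MyoD, and 2 and 3 read pairs with VP64-MyoD, too few for the test. The ratio of VP64-MyoD to untreated was 1.19 (95% counting interval from 0.255 to 5.98), so a change was not detectable at this depth.

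All 10 genes of the lower steps, from GAPDH to lactate, were higher with VP64-MyoD than in untreated cells (background 33.0%), with log2 fold changes between 0.44 and 5.04. With WT-MyoD 5 were higher and 0 lower (background 25.7% and 22.2%). Phosphoglycerate mutase and enolase each have a muscle form among them. PGAM2, the muscle mutase, had 0.601 and 0.636 CPM in untreated cells, 4.77 and 4.62 CPM with WT-MyoD, and 3.96 and 3.32 CPM with VP64-MyoD. Its exons overlap those of DBNL on the other strand, so reads of DBNL may be part of these levels, which was not tested. PGAM2 rose 7.58-fold with WT-MyoD (log2 fold change 2.92, SE 0.21, adjusted p = 1e-08) and 5.86-fold with VP64-MyoD (2.55, SE 0.22, adjusted p = 5.4e-08). The 2 VP64-MyoD libraries lay below the 2 WT-MyoD libraries (log2 difference -0.37, SE 0.16), with an adjusted p of 0.065 by edgeR; it was 0.044 by limma-voom and 0.044 with counts halved to read pairs, an alternative chosen after the data were seen. PGAM1, the general mutase, had 293 and 288 CPM in untreated cells, 300.4 and 266.5 CPM with WT-MyoD, and 418 and 401 CPM with VP64-MyoD. PGAM1 was not called with WT-MyoD (-0.03, SE 0.07, adjusted p = 0.72) and rose with VP64-MyoD (0.50, SE 0.07, adjusted p = 1.3e-05).

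ENO3, the beta enolase of muscle, had 0.882 and 0.818 CPM in untreated cells, 7.38 and 5.69 CPM with WT-MyoD, and 28.8 and 27.6 CPM with VP64-MyoD. It rose 7.72-fold with WT-MyoD (log2 fold change 2.95, SE 0.17, adjusted p = 8.4e-10), 33.0-fold with VP64-MyoD (5.04, SE 0.16, adjusted p = 2.1e-13) and 4.28-fold from WT-MyoD to VP64-MyoD (2.10, SE 0.12, adjusted p = 4.8e-10). The 3 groups were widely apart, and these calls held in 15 of 15 alternatives each. ENO1, the alpha enolase of most cells, had 491 and 493 CPM in untreated cells, 499.6 and 491 CPM with WT-MyoD, and 746 and 731 CPM with VP64-MyoD. It did not separate WT-MyoD from untreated cells (log2 fold change 0.01, SE 0.06, adjusted p = 0.92) and rose with VP64-MyoD (0.59, SE 0.06, adjusted p = 7.4e-07). ENO2, the gamma enolase of neurons, had 13.9 and 13.1 CPM in untreated cells, 17.0 and 14.6 CPM with WT-MyoD, and 27.0 and 25.6 CPM with VP64-MyoD. Its log2 fold change was 0.96 (SE 0.09, adjusted p = 2.7e-07) with VP64-MyoD and 0.23 (SE 0.10, adjusted p = 0.063) with WT-MyoD, the latter called without WT-MyoD replicate 2 (adjusted p = 0.0043).

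ENO2, ALDOC and PYGB are the brain members of their families, and a list of 8 neuron markers was measured beside them. The list summed to between 42.5 and 42.8 CPM in untreated cells, between 75.9 and 82.6 CPM with WT-MyoD and between 115 and 120.2 CPM with VP64-MyoD, and most of it came from TUBB3 and STMN2. STMN2 stood at 3.70, 9.38 and 63.1 CPM in the 3 groups, TUBB3 at 34.9, 64.3 and 51.7 CPM and MAP2 at 3.53, 4.73 and 2.03 CPM. Between the factors 1 of 4 markers tested (STMN2) was higher, 2 (TUBB3 and MAP2) were lower and SYP was not called. The higher sum with VP64-MyoD than with WT-MyoD rested on STMN2. ELAVL4 had no read in any group, NEFL none in untreated or WT-MyoD cells, and SNAP25 none in untreated or VP64-MyoD cells. The part of such cells in the ENO2 and ALDOC values was not tested.

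**Figure D2:**
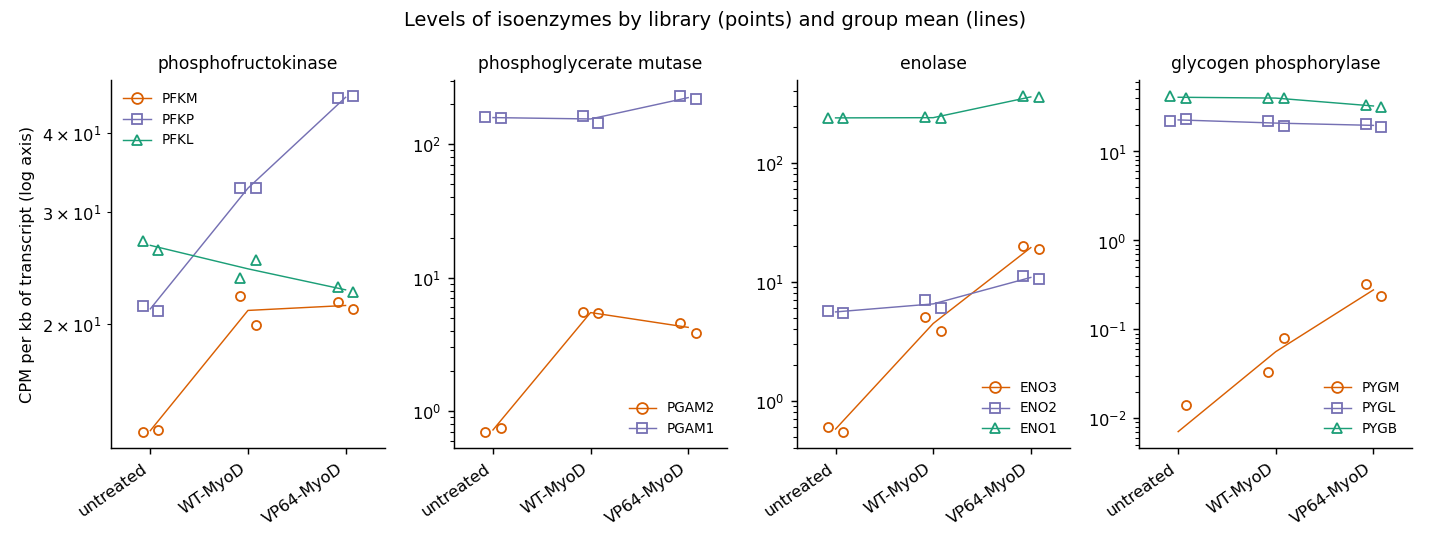
Level in CPM per kilobase of transcript on a log axis, for the genes of 4 enzyme families in untreated, WT-MyoD and VP64-MyoD cells; points are libraries, lines join group means, and the axes differ between panels. ENO3 moves from below ENO2 to above it between untreated and VP64-MyoD cells and stays far under ENO1. ENO3 was counted as 3 transcripts and ENO2 as 1, so this crossing may depend on the number of transcripts, which was not tested. PGAM2 and PYGM stay far under PGAM1 and PYGB. Untreated replicate 1 of PYGM, with no read, has no point.

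Pyruvate kinase makes pyruvate and ATP, and its gene PKM gives the M1 form of adult muscle and the M2 form of dividing cells by splicing. PKM had 1363 and 1291 CPM in untreated cells, 2421 and 2333 CPM with WT-MyoD, and 2771 and 2616 CPM with VP64-MyoD. It rose 1.79-fold with WT-MyoD (log2 fold change 0.84, SE 0.07, adjusted p = 7.1e-08) and 2.03-fold with VP64-MyoD (1.02, SE 0.07, adjusted p = 5.6e-09). Both groups with MyoD lay well above the untreated cells and close to each other; the call between them (0.18, SE 0.07, adjusted p = 0.041) was lost in 9 of 15 alternatives, among them each fit without a VP64-MyoD or an untreated replicate and that without WT-MyoD replicate 2, with adjusted p up to 0.27 without VP64-MyoD replicate 1. Its 7 transcripts held between 9048 and 11890 counts in untreated replicate 1 and moved alike, with log2 fold changes between 0.81 and 0.90 with WT-MyoD. With counts that even, the M1 and M2 forms could not be told apart here.

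GAPDH, often used as a reference gene, was not level: 1075 and 1081 CPM in untreated cells, 1395 and 1455 CPM with WT-MyoD, and 1669 and 1597 CPM with VP64-MyoD. The log2 fold changes were 0.40 (SE 0.07, adjusted p = 0.00013) and 0.60 (SE 0.07, adjusted p = 1.4e-06) over untreated cells. The step from WT-MyoD to VP64-MyoD (0.20, adjusted p = 0.021) was lost without VP64-MyoD replicate 1 (adjusted p = 0.18), without VP64-MyoD replicate 2 (adjusted p = 0.068) and in a fit of these 2 groups alone (adjusted p = 0.054). PGK1, the next enzyme, which yields ATP, rose by log2 fold changes of 0.26 with WT-MyoD (adjusted p = 0.0024, or 0.055 without untreated replicate 2) and 0.84 with VP64-MyoD (adjusted p = 9e-09).

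Lactate dehydrogenase is made of A subunits, typical of skeletal muscle, and B subunits, typical of heart. LDHA had 736 and 722 CPM in untreated cells, 819 and 753 CPM with WT-MyoD, and 1035 and 1030.4 CPM with VP64-MyoD. LDHB had 96.7 and 89.5 CPM in untreated cells, 109.5 and 91.2 CPM with WT-MyoD, and 124 and 128 CPM with VP64-MyoD. Both rose with VP64-MyoD (log2 fold changes 0.50 and 0.44, adjusted p = 9.5e-06 and 0.00018), and neither was called with WT-MyoD (0.11 each, adjusted p = 0.21 and 0.28), where the calls came without WT-MyoD replicate 2 (adjusted p = 0.0081 and 0.0013). Per length LDHA made up 84.8% ± 0.540 of the pair in the untreated group, 84.8% ± 0.910 with WT-MyoD and 85.3% ± 0.311 with VP64-MyoD (SD, n = 2), and the libraries of the groups overlapped. LDHA was counted as 6 transcripts and LDHB as 2, so the level of this share would be too high if reads were counted for several transcripts.

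**Figure D3:**
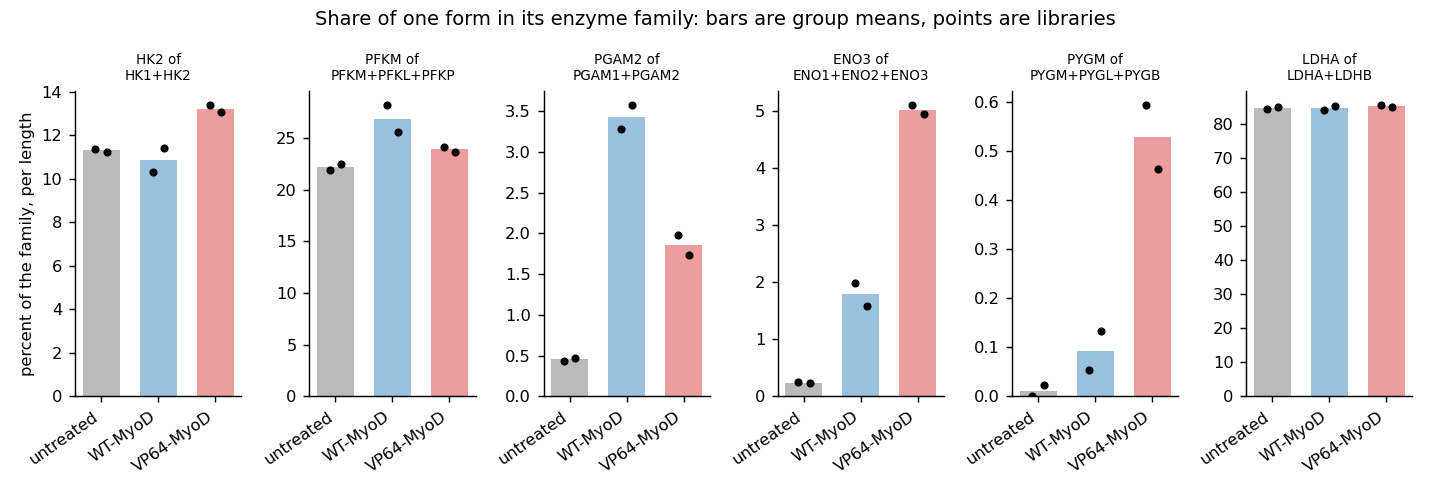
Share of 1 form in its enzyme family, in percent of CPM per kilobase, with bars as group means from 0 and points as libraries; each panel has its own vertical scale. PGAM2 is highest with WT-MyoD (3.43%), ENO3 and PYGM are highest with VP64-MyoD (5.01% and 0.529%), and LDHA stays between 84.8% and 85.3%.

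Shares put these isoenzyme changes on 1 scale. Their level may depend on the number of transcripts counted per gene, which was 1 for HK2 and 5 for HK1. PGAM2 made up 0.453% ± 0.0235 of the 2 mutases in the untreated group, 3.43% ± 0.208 with WT-MyoD and 1.86% ± 0.173 with VP64-MyoD (SD, n = 2). ENO3 made up 0.238% ± 0.0169 of the 3 enolases in the untreated group, 1.79% ± 0.290 with WT-MyoD and 5.01% ± 0.109 with VP64-MyoD. In all groups the general forms made up most of the RNA of these steps. In the untreated group the 3 enolases together summed to 243 and 243.5 CPM per kb, against 252 and 246 CPM per kb with WT-MyoD and 389 and 382 CPM per kb with VP64-MyoD. The share of HK2 among the 2 hexokinases was 11.3% ± 0.119, 10.9% ± 0.795 and 13.2% ± 0.224, and that of SLC2A4 among the 3 transporters was at most 0.214% in any library. For 2 libraries against 2 an exact permutation test cannot give a p below 0.333, and no test of the shares was run. The PGAM2 and ENO3 shares of the 3 groups did not overlap.

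Glycogen breakdown depends on phosphorylase and on the kinase that turns it on, and here the muscle genes rose while the others did not. With WT-MyoD 3 of 6 genes were higher and 0 lower (background 25.7% and 22.2%). With VP64-MyoD 3 were higher and 3 lower (background 33.0% and 30.0%). PYGM, muscle phosphorylase, had 0 and 1 read pairs in the untreated group, 3 and 5 read pairs with WT-MyoD, and 23 and 17 read pairs with VP64-MyoD. The VP64-MyoD libraries were clearly the highest. The ratio of VP64-MyoD to untreated was 38.0 (95% counting interval from 6.43 to 1536.4; edgeR adjusted p = 5.5e-05) and that of VP64-MyoD to WT-MyoD was 4.94 (from 2.28 to 12.2; adjusted p = 0.0026, or 0.051 without VP64-MyoD replicate 1). That of WT-MyoD to untreated was 7.69 (from 1.03 to 341), with an adjusted p of 0.042 that passed in 6 of 12 alternatives and ranged from 0.019 to 0.25; it was 0.25 without untreated replicate 1, 0.18 without WT-MyoD replicate 2, and 0.066 and 0.059 without VP64-MyoD replicate 1 and 2. PYGM too entered the test only through the VP64-MyoD libraries.

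The other phosphorylases were lower with VP64-MyoD than in untreated cells and not called with WT-MyoD. PYGB, the brain form, had 172 and 165 CPM in untreated cells, 163 and 166 CPM with WT-MyoD, and 138 and 130.4 CPM with VP64-MyoD. PYGB was lower with VP64-MyoD than in untreated cells (log2 fold change -0.33, SE 0.06, adjusted p = 0.00026) and than with WT-MyoD (-0.29, SE 0.06, adjusted p = 0.00075). PYGL, the liver form, had 64.3 and 66.3 CPM in untreated cells, 64.2 and 56.1 CPM with WT-MyoD, and 58.6 and 54.2 CPM with VP64-MyoD. Its log2 fold change with VP64-MyoD was -0.21 (SE 0.07, adjusted p = 0.022), which did not pass without VP64-MyoD replicate 2 (adjusted p = 0.2), untreated replicate 1 (adjusted p = 0.063) or untreated replicate 2 (adjusted p = 0.12). PYGL was called lower with WT-MyoD without WT-MyoD replicate 1 (adjusted p = 0.01), and lower between the factors without WT-MyoD replicate 2 (adjusted p = 0.012). Per length PYGM came to 0.0113% ± 0.0160 of the 3 phosphorylases in the untreated group, 0.0934% ± 0.0563 with WT-MyoD and 0.529% ± 0.0915 with VP64-MyoD (SD, n = 2).

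Phosphorylase kinase has 2 muscle subunits on the list, the regulatory PHKA1 and the catalytic PHKG1, and the beta subunit PHKB that all tissues share. PHKA1 had 3.05 and 2.91 CPM in untreated cells, 8.62 and 7.69 CPM with WT-MyoD, and 9.93 and 10.3 CPM with VP64-MyoD. It rose 2.74-fold with WT-MyoD (log2 fold change 1.46, SE 0.13, adjusted p = 1.3e-07) and 3.39-fold with VP64-MyoD (1.76, SE 0.13, adjusted p = 8.7e-09). PHKG1 had 4.21 and 3.73 CPM in untreated cells, 12.8 and 12.2 CPM with WT-MyoD, and 16.0 and 15.4 CPM with VP64-MyoD. It rose 3.13-fold (1.65, SE 0.11, adjusted p = 5.1e-09) and 3.94-fold (1.98, SE 0.11, adjusted p = 3.8e-10). For both subunits the 3 groups were apart and in the order untreated, WT-MyoD, VP64-MyoD.

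The steps from WT-MyoD to VP64-MyoD were small in both muscle subunits. For PHKG1 the log2 fold change was 0.33 (adjusted p = 0.01, or 0.075 without VP64-MyoD replicate 1). For PHKA1 it was 0.31 (adjusted p = 0.033), which was lost in 5 of 15 alternatives, with adjusted p of 0.087, 0.16 and 0.18 without VP64-MyoD replicate 1, VP64-MyoD replicate 2 and WT-MyoD replicate 2. PHKB had 100.3 and 111 CPM in untreated cells, 104 and 109 CPM with WT-MyoD, and 86.7 and 86.6 CPM with VP64-MyoD. PHKB was not called with WT-MyoD (log2 fold change 0.01, SE 0.07, adjusted p = 0.9) and fell with VP64-MyoD (-0.28, SE 0.07, adjusted p = 0.0016).

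In glycogen synthesis 1 of 6 genes was higher and 3 were lower with WT-MyoD, against 25.7% and 22.2% of all genes. With VP64-MyoD 3 were higher and 3 lower, against 33.0% and 30.0% of all genes. GYS1, the glycogen synthase of muscle and most tissues other than liver, had 76.7 and 69.9 CPM in untreated cells, 299.9 and 322 CPM with WT-MyoD, and 310.5 and 275 CPM with VP64-MyoD. It rose 4.24-fold with WT-MyoD (log2 fold change 2.08, SE 0.08, adjusted p = 3.2e-12) and 3.99-fold with VP64-MyoD (2.00, SE 0.08, adjusted p = 3.7e-12). The libraries of the 2 factors overlapped, and the difference between them was -0.09 (SE 0.07, adjusted p = 0.33). UGP2, which makes the UDP-glucose that the synthase uses, had 107 and 106 CPM in untreated cells, 89.5 and 80.6 CPM with WT-MyoD, and 131 and 132 CPM with VP64-MyoD. UGP2 was lower with WT-MyoD (-0.33, SE 0.07, adjusted p = 0.00065) and higher with VP64-MyoD (0.30, SE 0.06, adjusted p = 0.00082), as with the transporter SLC2A3.

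GBE1, the branching enzyme, had 148 and 143 CPM in untreated cells, 164.5 and 157 CPM with WT-MyoD, and 107.5 and 111 CPM with VP64-MyoD. It fell with VP64-MyoD (log2 fold change -0.42, SE 0.06, adjusted p = 2.5e-05), while with WT-MyoD the value was 0.14 (adjusted p = 0.063, or 0.0058 without WT-MyoD replicate 2). PGM1, phosphoglucomutase, which links glucose 1-phosphate to glycolysis, had 76.0 and 72.7 CPM in untreated cells, 63.4 and 58.2 CPM with WT-MyoD, and 68.7 and 61.6 CPM with VP64-MyoD. PGM1 was lower with WT-MyoD (-0.29, SE 0.07, adjusted p = 0.0034, or 0.05 without untreated replicate 1). With VP64-MyoD its value was -0.19 (SE 0.07, adjusted p = 0.029), which did not pass without VP64-MyoD replicate 2 (adjusted p = 0.3), untreated replicate 1 (0.17) or untreated replicate 2 (0.061).

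PPP1R3A and PPP1R3C are subunits that bring protein phosphatase 1 to glycogen, where it activates the synthase; the first is the version of striated muscle and the second is made in many tissues. They went opposite ways. PPP1R3A had no read in the 4 untreated and WT-MyoD libraries and 26 and 24 read pairs with VP64-MyoD. Taking 3 read pairs per group as the floor, PPP1R3A was at least 15.8-fold higher than in the untreated group and at least 16.5-fold higher than with WT-MyoD (edgeR adjusted p = 8.1e-06 and 9.9e-06). The gene entered the test only through the VP64-MyoD libraries, so these p-values are no independent support. PPP1R3C had 138 and 140.5 CPM in untreated cells, 107 and 108 CPM with WT-MyoD, and 60.4 and 58.6 CPM with VP64-MyoD. It fell in steps, by 0.38 on the log2 scale with WT-MyoD (SE 0.06, adjusted p = 6.8e-05) and by 1.23 on the log2 scale with VP64-MyoD (SE 0.06, adjusted p = 8.2e-11), with VP64-MyoD under WT-MyoD as well (-0.85, SE 0.06, adjusted p = 1.1e-08).

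**Figure D4:**
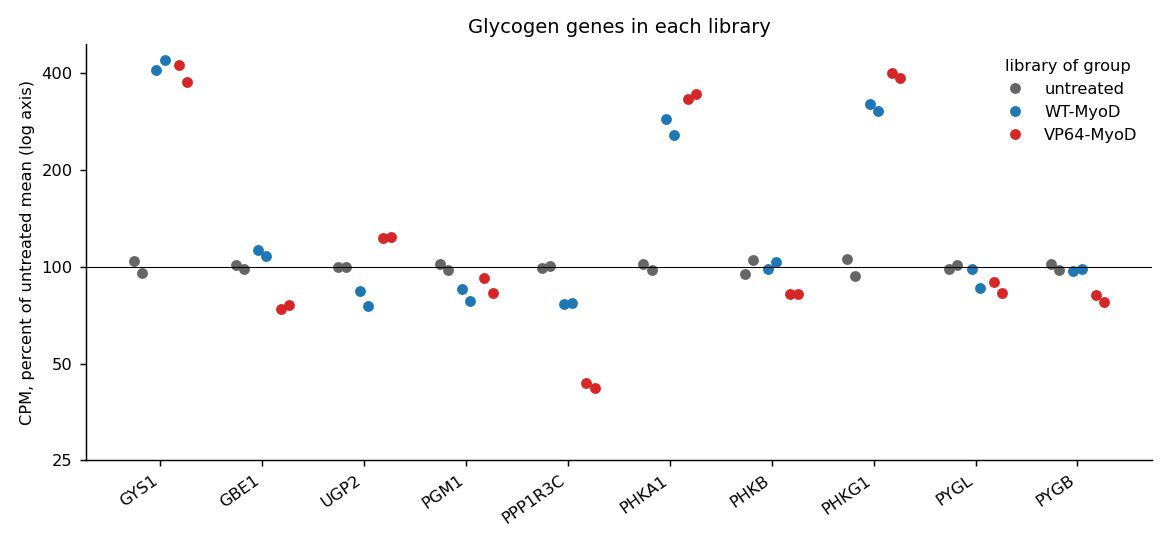
CPM of 10 glycogen genes in each library as percent of the untreated mean, on a log axis; each point is a library, coloured by group. GYS1, PHKA1 and PHKG1 lie above the line of 100 in all libraries with MyoD, PPP1R3C lies under it in both groups and lowest with VP64-MyoD, and UGP2 lies under it with WT-MyoD and above it with VP64-MyoD.

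The balance of transcripts within a gene was tested as well. Of 19 genes with several testable transcripts, 0 were called in each of the 3 comparisons by edgeR's diffSpliceDGE (background 0.265%, 0.811% and 0.596% of 6040 genes). Before adjustment 0, 0 and 1 of them passed 0.05, the 1 being PHKG1 between the factors (edgeR adjusted p = 0.56). Counts were close to even between the transcripts of a gene, so 1 read may have been counted for several. Such counts would hide a change in balance, so the lack of calls does not show that the balance was unchanged. In the authors' deposited table, which lists 3135 transcripts, 9 of the 35 genes appear with 26 transcripts: ENO3, GAPDH, GYS1, PFKM, PFKP, PGAM2, PHKA1, PHKG1 and PKM. The sign of the fold change in the authors' deposited table was that of the summed gene here in 52 of 52 cases. Both rest on the same libraries, so equal signs are no independent support. For PGAM2 the authors' deposited table gives log2 fold changes of 2.93 and 2.56 for WT-MyoD and VP64-MyoD over untreated.

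Genes around the pathway were read from 4 further lists, whose counts stand beside 25.7% higher and 22.2% lower over all genes with WT-MyoD, 33.0% higher and 30.0% lower with VP64-MyoD, and 28.4% and 28.2% between the factors; several of the counts lie near those shares. Of 16 genes tested from a list of 20 for glucose transport and trapping, 7 were higher and 1 lower with WT-MyoD, 8 higher and 4 lower with VP64-MyoD, and 4 higher and 5 lower between the factors. TXNIP, which brings glucose transporters in from the cell surface, stood at 352, 420 and 160 CPM in untreated, WT-MyoD and VP64-MyoD cells (log2 fold change between the factors -1.39, SE 0.06, adjusted p = 5.2e-11). TBC1D1, a Rab regulator of GLUT4 traffic in muscle, rose from 29.1 to 37.0 and 55.5 CPM, whereas its relative TBC1D4 stood at 20.0, 29.6 and 20.2 CPM. SLC2A12 stood at 1.67, 7.37 and 2.92 CPM, SLC2A8 at 0.460, 1.95 and 1.31 CPM, and the fructose transporter SLC2A5 at 6, 44 and 140 read pairs over the group. SLC2A10 (-0.79, SE 0.07, with VP64-MyoD over untreated; adjusted p = 6.8e-08) and SLC2A9 (-1.30, SE 0.17, between the factors; adjusted p = 1.2e-05) fell with VP64-MyoD. SLC2A6 rose by 0.61 with WT-MyoD (SE 0.12, edgeR adjusted p = 0.00039) and by 0.49 with VP64-MyoD (SE 0.12, adjusted p = 0.0018).

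Of 11 genes tested from a list of 22 for control of glycolysis and rare isoforms, 4 were higher and 1 lower with WT-MyoD, 7 higher and 2 lower with VP64-MyoD, and 6 higher and 1 lower between the factors. PFKFB3 and PFKFB4, which make the fructose 2,6-bisphosphate that drives PFK, were higher with VP64-MyoD. PFKFB2 of the same family was lower, at 26.5, 23.1 and 17.3 CPM in untreated, WT-MyoD and VP64-MyoD cells. Its log2 fold change with VP64-MyoD over untreated was -0.61 (SE 0.10, edgeR adjusted p = 9.8e-05). PFKFB3 went from 24.4 to 34.5 and 63.7 CPM (log2 fold change 1.38, SE 0.08, with VP64-MyoD; adjusted p = 4.8e-10) and PFKFB4 from 1.97 to 2.37 and 4.82 CPM (1.29, SE 0.20; adjusted p = 3.5e-05). PCK2, the mitochondrial enzyme that makes phosphoenolpyruvate, fell from 189 to 50.9 CPM with WT-MyoD and stood at 116 CPM with VP64-MyoD. BPGM, a mutase that makes 2,3-bisphosphoglycerate, stood at 10.4, 13.3 and 19.4 CPM, and TIGAR, a phosphatase that lowers fructose 2,6-bisphosphate, at 39.1, 49.1 and 45.5 CPM. PGAM4, a near-identical copy of PGAM1, rose between the factors by 0.49 (adjusted p = 6.4e-05), and reads of these copies may have been counted for either.

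Of 21 genes for the fate of pyruvate and lactate, 5 were higher and 4 lower with WT-MyoD, 11 higher and 5 lower with VP64-MyoD, and 10 higher and 6 lower between the factors. The transporters of lactate differed. SLC16A3, which exports it, stood at 121.6, 77.1 and 113.6 CPM in the 3 groups, and SLC16A7, a high-affinity form, at 104.8, 91.6 and 33.7 CPM (log2 fold change -1.64, SE 0.11, with VP64-MyoD; adjusted p = 4.4e-09). BSG, a membrane partner of some lactate transporters, fell with VP64-MyoD from 371 to 245 CPM. PDK1, which blocks pyruvate dehydrogenase, stood at 10.5, 9.09 and 19.7 CPM, and PDHB, a subunit of that enzyme, at 54.6, 61.5 and 83.5 CPM. PDK3, another such kinase, rose from 2.24 to 4.63 CPM with WT-MyoD and to 4.75 CPM with VP64-MyoD. The activating phosphatase PDP1 stood at 45.5, 67.4 and 61.9 CPM. The alanine transaminase GPT2 stood at 44.8, 23.1 and 42.0 CPM.

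Of 22 genes tested from a list of 24 other glycogen enzymes and regulators, 4 were higher and 6 lower with WT-MyoD, 8 higher and 7 lower with VP64-MyoD, and 8 higher and 4 lower between the factors. PRKAG3, the AMP-activated kinase subunit of skeletal muscle, had 3 read pairs over the untreated group, 559 with WT-MyoD and 1165 with VP64-MyoD, ratios of 179 (95% counting interval from 60.9 to 871) and 368.5 (from 126 to 1789.7). PGM5, a muscle relative of phosphoglucomutase without its activity, had 2, 94 and 444 read pairs, ratios of 45.1 (from 12.2 to 378) and 211 (from 58.0 to 1745). PRKAB2, another subunit of the kinase, was lower with both factors, at 111.6, 50.9 and 70.7 CPM. GAA, the lysosomal enzyme that degrades glycogen, fell from 212 to 162 and 82.8 CPM (log2 fold change -1.36, SE 0.06, with VP64-MyoD; adjusted p = 4.8e-11). Further subunits that target phosphatase 1 to glycogen were PPP1R3B, at 70.2, 41.05 and 43.2 CPM, and PPP1R3D, at 11.2, 14.8 and 8.07 CPM, and PGM2L1 stood at 30.2, 24.5 and 38.7 CPM.

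Many glycolytic genes are also known targets of the hypoxia pathway, and 20 hypoxia-induced genes outside glycolysis were read beside them. Of 19 tested, 3 were higher and 10 lower with WT-MyoD (median log2 fold change -0.18), 7 higher and 5 lower with VP64-MyoD (0.12), and 10 higher and 3 lower between the factors (0.33). The shares over all genes were 25.7% and 22.2%, 33.0% and 30.0%, and 28.4% and 28.2%. VEGFA stood at 111, 32.0 and 114 CPM in untreated, WT-MyoD and VP64-MyoD cells, DDIT4 at 89.0, 33.0 and 96.5 CPM, and AK4 at 45.4, 29.1 and 65.4 CPM. ADM fell with each factor, at 198, 109 and 30.5 CPM. EGLN3 stood at 0.0601, 3.19 and 3.58 CPM. With either factor P4HA2 was higher than in untreated cells (182.5, 315 and 492 CPM) and NDRG1 lower (238, 164 and 137 CPM). Their part in the glycolytic values was not tested.

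Markers of other cells were read as well. The summed level of 6 adipocyte markers was at most 0.863 CPM in any library, with FABP4 at 0 in every group, and that of 6 liver markers at most 0.602 CPM. The 6 blood markers summed to between 45.8 and 182 CPM, nearly all of it CD68 (66.8, 176 and 43.8 CPM), with HBB and CD3E at 0. The 12 fibroblast markers summed to between 42499 and 44798 CPM in untreated cells, between 26962 and 30899 CPM with WT-MyoD and between 28223 and 30601 CPM with VP64-MyoD; 4 were higher and 6 lower with WT-MyoD, and 2 higher and 9 lower with VP64-MyoD.

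The libraries do not mark the strand, so reads from an exon shared with a gene on the other strand may have been counted for either. By GENCODE release 29, exons of PGAM2 overlap those of DBNL over 857 bases, of PFKM those of SENP1 over 628, of PHKG1 those of SUMF2 over 388, of PGM1 those of ITGB3BP over 197, of PHKB those of ITFG1 over 194, of ENO1 those of ENO1-AS1 over 126, and of ENO3 those of PFN1 over 111; for TPI1 and SLC2A4 the overlap was 14 and 6 bases. The overlap of PGAM2 is as long as its only counted transcript, 857 bases, so any of its reads may have come from DBNL. DBNL stood at 99.0, 101 and 86.6 CPM in the 3 groups, SENP1 at 28.1, 27.9 and 26.0 CPM, and SUMF2 at 117, 97.9 and 85.3 CPM. PFN1 stood at 213, 240.4 and 323 CPM, in the same order of groups as ENO3. How many reads were shared was not tested.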

How the data were processed

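Polyadenylated RNA of 6 libraries was made into unstranded libraries by transposase tagmentation, per the labels' protocols. The submitters' processing notes name CASAVA, Bowtie 0.12.9, DESeq 1.10.1 and the build hg19. The deposited counts are whole numbers per RefSeq transcript and all even, so a read pair counts as 2. The authors' table also holds mean signal values per group, ratios (fold changes), log2 fold changes and p-values per transcript, per the file headers; only its log2 fold changes were used, for their sign and for PGAM2.

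Of 40710 transcripts, 39324 were matched to a gene symbol through a RefSeq table and 526 through GENCODE release 29; 859 had none (0.601% to 0.743% of counts) and were kept as features of their own, and 1 is the transgene. Sums per gene gave 24407 genes, of which 15778 passed filterByExpr (minimum count 10, total 15). The 3 groups were fitted together with edgeR 4.0.16 (TMM scaling, quasi-likelihood F test, 3 residual degrees of freedom), with Benjamini-Hochberg adjustment over all genes tested and a threshold of 0.05. CPM are counts scaled by TMM to a common library total. CPM per kb divide each transcript by its length and add up the transcripts of a gene. A read counted for several transcripts would enter such sums several times. Alternatives were DESeq2 1.42.0, limma-voom (limma 3.58.1), RLE size factors, no filter, a filter of 1 CPM in 2 libraries and the highest transcript per gene. Further ones were only the groups compared, a replicate block and each library left out. Counts halved to read pairs were added after the data were seen. An alternative that did not test a gene is left out of its count, so SLC2A4 between the factors has 13 of 15. All 35 genes were named, and from each further list up to 4 genes with the smallest adjusted p per comparison, with PFKFB2 named besides. A gene that this rule picked is not reported here. The genes and lists were chosen with earlier results of these data known.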

Additional observations from a re-analysis of the deposited data

How the results depend on the processing

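With each library left out in turn, the genes higher numbered 11 to 18 with WT-MyoD, 25 to 26 with VP64-MyoD and 17 to 22 between the factors, and the genes lower 3 to 6, 4 to 7 and 4 to 5. Calls that held in every alternative run were 10 of 15 higher and 3 of 4 lower with WT-MyoD, 25 of 26 and 4 of 7 with VP64-MyoD, and 17 of 23 and 4 of 4 between the factors. A replicate block gave 15 higher and 4 lower with WT-MyoD, 26 and 7 with VP64-MyoD, and 21 and 4 between the factors. Under the block PYGM with WT-MyoD (adjusted p = 0.055) and, between the factors, SLC2A4 (0.051) and PKM (0.053) were not called, and ENO2 with WT-MyoD (0.049) was called; the labels' numbers share no stated batch, and same-numbered libraries correlated at 0.125, 0.0491 and -0.0811 over 9209 genes.

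Leaving out libraries moved ratios of family shares over these ranges: SLC2A4 0.6999 to 1.503 with WT-MyoD, 1.106 to 2.652 with VP64-MyoD and 1.158 to 2.371 between the factors, and PYGM 4.134 to 11.79 with WT-MyoD, 23.41 to 52.54 with VP64-MyoD and 3.971 to 9.86 between the factors. With the highest transcript per gene the ratio of shares was 26.76 for PYGM with VP64-MyoD (46.81 over all transcripts), 1.123 for HK2 with VP64-MyoD and 1.124 between the factors, 1.347 and 1.178 for PFKM with WT-MyoD and VP64-MyoD, 1.486 for ALDOC between the factors, and 1.025 and 1.018 for LDHA with VP64-MyoD and between the factors; the cause was not tested.

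Signs changed for values that were not called with all libraries; TPI1 and LDHB with WT-MyoD (adjusted p = 0.018 and 0.0013) and PYGL between the factors (0.012) were called at the outer end of their range, without WT-MyoD replicate 2. With each library left out in turn, the log2 fold change with WT-MyoD ran from -0.4796 to 0.6397 for SLC2A4, from -0.0925 to 0.1573 for TPI1, from -0.1262 to 0.0632 for PGAM1, from -0.0057 to 0.0358 for ENO1, from -0.0336 to 0.2472 for LDHB and from -0.0603 to 0.0807 for PHKB (-0.011 without WT-MyoD replicate 2). Between the factors it ran from -0.0622 to 0.0999 for PFKM and from -0.2014 to 0.0058 for PYGL. With limma-voom SLC2A4 was at 0.0449 with WT-MyoD. With the highest transcript TPI1 was at -0.0108 and PHKB at -0.0088 with WT-MyoD, and HK1 at 0.001 and PFKM at -0.0551 between the factors; the cause was not tested. Depth limits SLC2A4, FBP2, PYGM and PPP1R3A, which rest on at most 50 read pairs a group.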
